A study of Rattus norvegicus with 8 samples.

Results

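The ferritin and antioxidant enzyme genes described here are Ftl1 and Fth1, the light and heavy chains of ferritin, the thioredoxin reductase Txnrd1, the superoxide dismutases Sod1 and Sod2, the peroxiredoxins Prdx1, Prdx2 and Prdx5, and the glutathione peroxidases Gpx1 and Gpx4. They are 10 of the 17379 genes measured. They were chosen by name, with Ftl1 already known to be among the most abundant axonal RNAs of these libraries, and all 10 were found in the library files and in both of the authors' comparison tables. The axonal abundance of Ftl1 is therefore given as a description, with no test.

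The cells were dorsal root ganglion neurons, the sensory neurons of the body wall and limbs, taken from rats at embryonic day 15. They were cultured for 7 days in microfluidic chambers, in which axons extend into a compartment separate from the cell bodies. All cultures received a lentivirus at plating: in the shControl groups it carried a control hairpin RNA, and in the shPum2 groups a hairpin against Pum2, an RNA-binding protein of the Pumilio family. RNA was sequenced from the somatic compartment, which the labels describe as holding cell bodies with axons, and from the axonal compartment, with 2 libraries in each of the 4 groups. The rats' strain and the number of animals behind a culture are not given in the sources used here, and no label says that replicates came from separate cultures, so p-values measure the spread between these libraries. The kit for library preparation was a standard one for somata and one for ultra-low input for axons, so kit and compartment cannot be told apart. Fewer cells or axons of a type and less RNA in each also cannot be told apart in such bulk samples.

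Ferritin is a hollow shell of light and heavy chains that stores iron. The heavy chain oxidises ferrous iron and the light chain favours its deposition as mineral, which keeps free iron from reacting with hydrogen peroxide. Superoxide dismutases turn superoxide into hydrogen peroxide, peroxiredoxins and glutathione peroxidases remove peroxides, and thioredoxin reductase supplies the electrons that most peroxiredoxins use through thioredoxin. Many of these genes are known targets of the transcription factor NRF2, which binds antioxidant response elements, and ferritin translation is held back by iron regulatory proteins when iron is scarce.

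The promoters of 8 of the 10 genes were in a RefSeq table of assembly GRCr8, which holds the 250 bases before and the 50 bases after each start. They were searched on both strands for the core of the antioxidant response element, TGACNNNGC. Matches were found for 4 of the 8 genes, against 13.1% of 27457 genes in the same table. The 4 matches are shown because they are the sequence feature that the gene list did not use. Each is printed 5′ to 3′ with 10 flanking bases on either side and the match in capitals.
Prdx1: cggcggggtaTGACTCAGCgctttccctg
Prdx5: cacccgcagaTGACTCTGCccacaggagg
Sod2: agctaggcgcTGACCCTGCcggcagcgcc
Txnrd1: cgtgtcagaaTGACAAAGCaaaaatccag
Coordinates are those of the printed stretches, flanks included. The Prdx1 stretch is at chr5:135383761-135383789 on the minus strand of GRCr8. The base of its match farthest upstream of the gene lies 135 bases before the start. The Prdx5 stretch is at chr1:213532010-213532038 and that of Sod2 at chr1:50050185-50050213, both on the plus strand. Counted in the same way, the base farthest upstream of the gene lies 1 base before the start for Prdx5 and 35 bases before it for Sod2. The rest of the Prdx5 match lies past the start. The Txnrd1 stretch is at chr7:22755964-22755992 on the plus strand. Counted from the base farthest upstream of the gene, its match lies 78 bases before 1 of the 2 starts listed. Promoter windows of Sod1, Prdx2, Gpx1 and Gpx4 held no match, which says only that these letters are not in the window. A match describes the sequence, and no binding was measured here.

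Depth and cell markers set the frame for all values below. Somatic libraries held 16725876 to 25821766 counts and axonal libraries 11641947 to 16131611. Pum2 stood at 160 to 164 CPM (counts scaled to the library total) in somatic shControl and at 36.5 to 38.2 CPM in somatic shPum2 libraries, and fell by 2.13 on the log2 scale (SE 0.07, adjusted p = 0.0247 by edgeR's quasi-likelihood test with Benjamini-Hochberg adjustment). In axonal libraries it was at 0.443 and 3.25 CPM with shControl, then at 1.46 and 7.07 CPM with shPum2, so that the labels could not be checked there. All 9 sensory neuron markers found, of 10 listed, had counts in every library. They summed to 27788 to 32538 CPM in somatic and to 15152 to 30604 CPM in axonal libraries. Most of the axonal sum was Nefm, at 10288 to 23707 CPM in axonal and 8756 to 10072 CPM in somatic libraries. All the others were lower in axonal than in somatic libraries. Prph went from 8383 to 10187 CPM in somatic to 1045 to 1879 CPM in axonal libraries. Scn10a went from 946 to 1156 CPM to 1.80 to 29.3 CPM, and Isl1 from 61.4 to 77.9 CPM to 0.062 to 26.6 CPM. The 10 macrophage markers summed to 66.8 to 270.2 CPM in somatic libraries. In axonal libraries they summed to 2420 and 2900 CPM with shControl, and to 3944 and 241 CPM in replicates 1 and 2 of shPum2. The 8 fibroblast markers summed to 1625 to 8515 CPM in somatic libraries, highest in replicate 1 of shPum2, and to 69.0 to 724 CPM in axonal libraries. The 8 Schwann cell and satellite glia markers stayed at 21.7 to 49.9 CPM in somatic and 25.3 to 89.3 CPM in axonal libraries, with Cdh19 at 0 in all 4 axonal libraries. The 3 erythroid genes found, of 4 listed, summed to 0.736 to 8.28 CPM in somatic and 81.8 to 866 CPM in axonal libraries.

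Ferritin RNA made up a far larger part of axonal than of somatic libraries. Ftl1 stood at 1268 and 1265 CPM in somatic shControl and at 1545 and 1229 CPM in somatic shPum2 libraries. In axons Ftl1 stood at 73384 and 55356 CPM with shControl, then at 57808 and 58369 CPM with shPum2. All 4 axonal values lay above all 4 somatic ones, and by counts Ftl1 was the most abundant gene in each axonal library, while in somatic libraries it ranked between 46 and 64. The mean was 50.8-fold higher in axonal than in somatic shControl libraries and 41.9-fold higher in shPum2 libraries. On the authors' deposited TPM scale, which divides by transcript length, Ftl1 ranked 1 in 3 axonal libraries and 2 in replicate 2 of shPum2, and the folds were 22.3 and 18.7.

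The heavy chain followed the light chain. Fth1 stood at 950.4 and 941 CPM in somatic shControl and at 1254 and 937 CPM in somatic shPum2 libraries. Its axonal values were 42499.5 and 36100.5 CPM with shControl and 32757 and 33589 CPM with shPum2. Again no axonal library overlapped a somatic one, and Fth1 ranked 2 or 3 by counts in every axonal library. The axonal mean was 41.6-fold the somatic one with shControl and 30.3-fold with shPum2 on the CPM scale, and 18.3-fold and 13.6-fold in TPM. In edgeR's fit of all 8 libraries with TMM scaling, Fth1 was higher in axons by 6.96 on the log2 scale with shControl (SE 0.39, adjusted p = 0.00389 by edgeR's quasi-likelihood test, Benjamini-Hochberg) and by 6.49 with shPum2 (SE 0.38, adjusted p = 0.00448, same test).

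Both chains together took 11.6% and 9.15% of the counts of axonal shControl libraries and 9.06% and 9.20% of those of axonal shPum2 libraries. In somatic libraries their share was 0.217% to 0.280%. The 95% Wilson intervals of these shares reached at most 0.0184 percentage points to either side, which covers counting error alone. The balance of the chains also differed between compartments: the ratio of Ftl1 to Fth1 in TPM was 1.31 to 1.5 in the 4 axonal libraries and 1.05 to 1.14 in the 4 somatic ones, and these ranges did not overlap. This ratio was not tested, since it contains Ftl1.

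The macrophage marker sum, given above, was lower in replicate 2 of axonal shPum2 than in the other axonal libraries. Ptprc, the pan-leukocyte antigen, was at 0 there and Lyz2, the most abundant of the markers, at 172 CPM. Lyz2 was at 816 to 2190.4 CPM in the other 3 axonal libraries. Cd68, Aif1, C1qb, C1qc and Tyrobp were also at their lowest axonal value in that library. Csf1r and C1qa were lower in replicate 2 of axonal shControl, at 0.296 and 0.369 CPM against 0.310 and 7.93 CPM. Cx3cr1 was lowest in replicate 1 of axonal shPum2, at 0.344 CPM. Of the marker sum of 2900 CPM in replicate 2 of axonal shControl, 2190.4 CPM were Lyz2. Of the 10 genes, Gpx1 (151 CPM) and Prdx5 (225 CPM) were at their lowest axonal value in replicate 2 of shPum2, Sod1, Prdx2 and Gpx4 at their highest, and Ftl1 (58369 CPM), Fth1 (33589 CPM), Txnrd1, Prdx1 and Sod2 between the others. Among somatic libraries replicate 1 of shPum2 had the highest macrophage and fibroblast sums and also the highest Ftl1 (1545 CPM), Fth1 (1254 CPM) and Gpx1 (73.1 CPM). The part of these other cells in the axonal and somatic values was not tested.

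**Figure D1:**
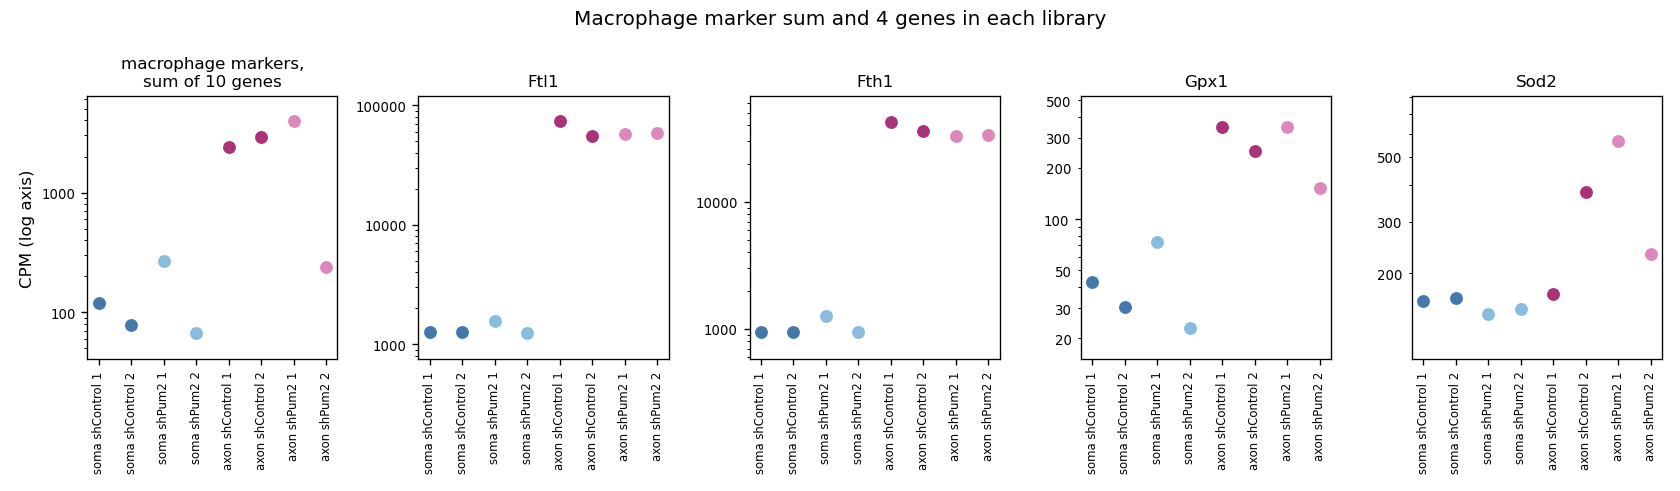
Summed CPM of 10 macrophage markers (left panel) and CPM of Ftl1, Fth1, Gpx1 and Sod2 in each of the 8 libraries, on log axes, 1 point per library. Replicate 2 of axonal shPum2 has the lowest axonal marker sum, 241 CPM, with Ftl1 at 58369 CPM and Gpx1 at 151 CPM. The part of macrophage RNA in these values was not tested.

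The glutathione peroxidases came next in axonal excess. Gpx4, a selenoenzyme that reduces lipid peroxides within membranes, stood at 194 and 220.3 CPM in somatic shControl and at 213 and 232 CPM in somatic shPum2 libraries. Its axonal values were 1169 and 1353 CPM with shControl and 1194 and 1531 CPM with shPum2. The compartments did not overlap with either hairpin, and the mean was 6.09-fold and 6.12-fold higher in axons. In TPM the folds were 2.72 and 2.73, still without overlap. In the edgeR fit (TMM) the log2 difference was 4.18 with shControl (SE 0.44, adjusted p = 0.00474, quasi-likelihood test, Benjamini-Hochberg) and 4.21 with shPum2 (SE 0.44, adjusted p = 0.0054).

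Gpx1, the general cellular glutathione peroxidase, stood at 42.8 and 30.3 CPM in somatic shControl and at 73.1 and 23.1 CPM in somatic shPum2 libraries. Axonal libraries had 345 and 249.8 CPM with shControl and 347 and 151 CPM with shPum2. Every axonal value lay above every somatic value on the CPM scale, although the axonal shPum2 libraries differed 2.29-fold from each other. The lowest axonal value came from the library with the low macrophage marker sum. Prdx5 was also at its lowest axonal value there, while Sod1, Prdx2 and Gpx4 were at their highest. The part of macrophage RNA in these values was not tested. In TPM the shControl libraries did not overlap (316 and 248 in axons, 93.1 and 65.1 in somata), but those of shPum2 did (368 and 133 against 159 and 49.6). The edgeR fit (TMM) gave log2 differences of 4.62 with shControl (SE 0.67, adjusted p = 0.00922, quasi-likelihood test, Benjamini-Hochberg) and 3.83 with shPum2 (SE 0.64, adjusted p = 0.015).

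The peroxiredoxins had 1.92-fold to 4.54-fold higher mean CPM in axons. Prdx1, a cytosolic peroxiredoxin, stood at 238 and 273 CPM in somatic shControl and at 275 and 287 CPM in somatic shPum2 libraries, against 636 and 1687 CPM in axonal shControl and 604 and 873 CPM in axonal shPum2 libraries. Replicate 2 of axonal shControl stood apart at 2.65-fold its partner. Prdx2, a cytosolic peroxiredoxin prominent in neurons, had the steadiest axonal values, 999.7 and 1039 CPM with shControl and 1162 and 1331 CPM with shPum2, above 524 and 536 CPM and then 476 and 516 CPM in somata. Prdx5, found in mitochondria, peroxisomes and cytosol, stood at 140.3 to 151.5 CPM in the 4 somatic libraries and at 229 and 436 CPM in axonal shControl and 362 and 225 CPM in axonal shPum2 libraries. For all 3 the axonal libraries lay above the somatic ones in CPM with either hairpin. In TPM with shControl the axonal mean was 2.04-fold the somatic one for Prdx1, 0.851-fold for Prdx2 and 1.03-fold for Prdx5, and Prdx1 and Prdx5 overlapped between compartments while Prdx2 lay below. With shPum2 the TPM folds were 1.16, 1.12 and 0.911, with Prdx1 and Prdx2 above the somatic libraries and Prdx5 overlapping.

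The superoxide dismutases had 1.58-fold to 2.70-fold higher mean CPM in axons. Sod1, the copper and zinc enzyme of the cytosol, stood at 242 and 271 CPM in somatic shControl, 250.2 and 294 CPM in somatic shPum2, 418 and 394 CPM in axonal shControl and 355 and 511 CPM in axonal shPum2 libraries. Its axonal mean was 1.58-fold and 1.59-fold the somatic one in CPM but 0.695-fold and 0.706-fold in TPM, and the libraries did not overlap on either scale, so the scale decided which compartment was the higher. Sod2, the manganese enzyme of mitochondria, stood at 161 and 165 CPM in somatic shControl and at 146 and 151 CPM in somatic shPum2 libraries. The axonal Sod2 values were spread over 170.0 and 379 CPM with shControl and 567 and 233 CPM with shPum2, 2.23-fold and 2.43-fold apart. In TPM the compartments overlapped for Sod2 with both hairpins.

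Txnrd1, the cytosolic thioredoxin reductase, was the exception: in CPM and TPM it was lower in axons than in somata with both hairpins, although its TMM-scaled log2 difference with shPum2 was 0.06. It stood at 264 and 256 CPM in somatic shControl and at 272 and 254 CPM in somatic shPum2 libraries. In axons it stood at 3.17 and 15.3 CPM with shControl, then at 98.6 and 89.1 CPM with shPum2, which are 37 and 207 counts and then 1148 and 1438 counts. No axonal library reached the lowest somatic one. The axonal mean was 28.2-fold lower with shControl and 2.80-fold lower with shPum2 in CPM, and 61.8-fold and 6.27-fold lower in TPM. Of the 4 Txnrd1 transcripts listed, the one of 3465 bases held 97.0% of the gene's counts.

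**Figure D2:**
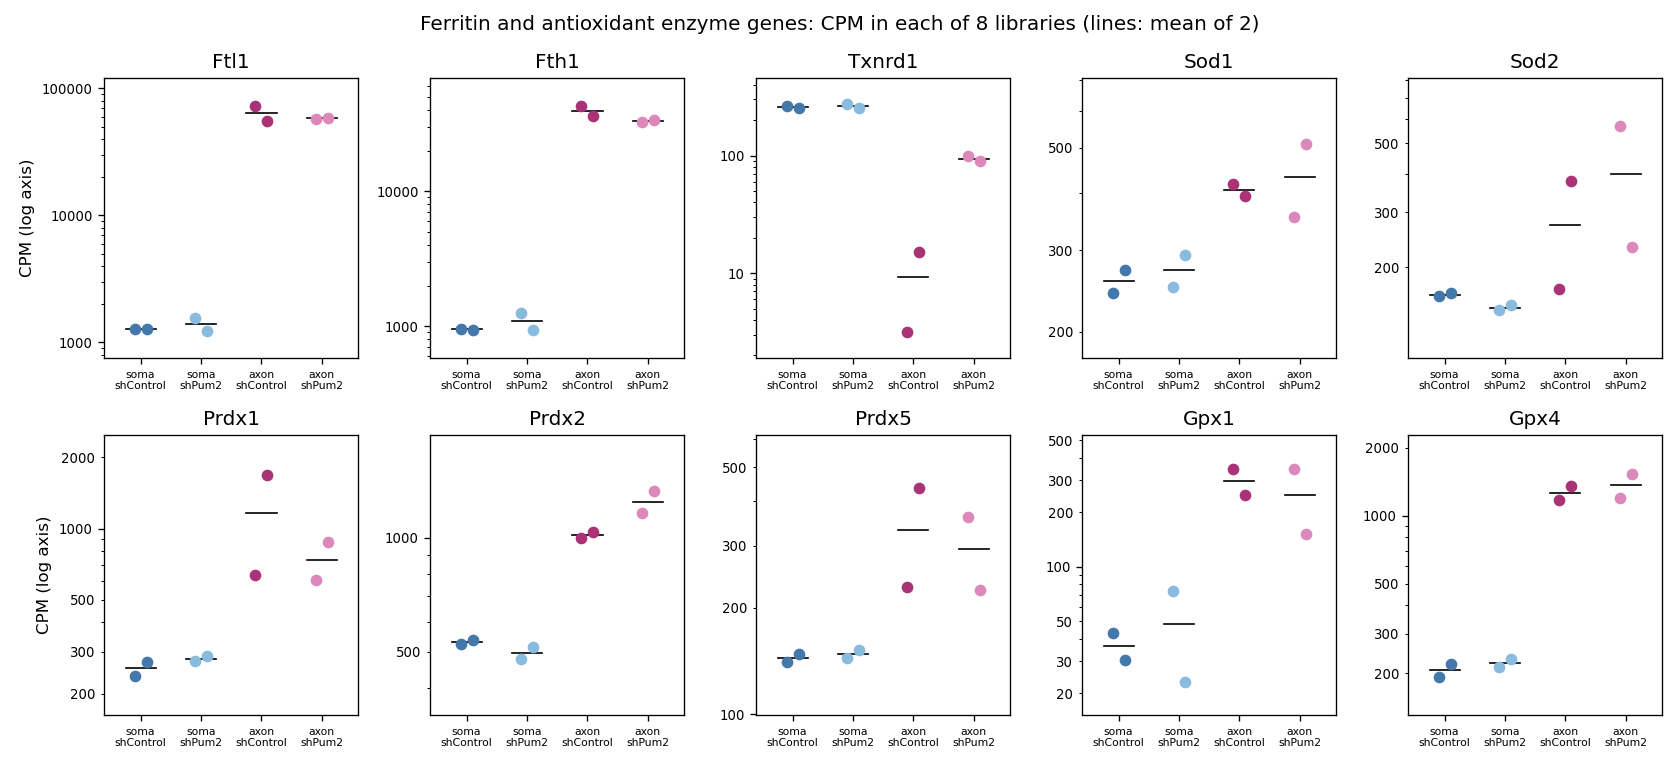
CPM of the 10 genes in each of the 8 libraries (log axes that differ between panels), with a line at the mean of the 2 libraries of a group. Ftl1 and Fth1 are far higher in the 4 axonal libraries, and Txnrd1 is lowest in the 2 axonal shControl libraries, at 3.17 and 15.3 CPM.

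Counted over the list, 9 of the 10 genes lay above the somatic libraries in CPM with no overlap and 1 below, with shControl and again with shPum2. Among all 12337 genes of the fit, 11.5% lay above and 68.7% below with shControl, and 11.0% and 69.3% with shPum2. In TPM the counts were 4 above (Ftl1, Fth1, Gpx1 and Gpx4), 3 below (Txnrd1, Sod1 and Prdx2) and 3 overlapping with shControl, where 6.34% of all genes lay above and 81.5% below. With shPum2 they were 5 above (Ftl1, Fth1, Prdx1, Prdx2 and Gpx4), 2 below (Txnrd1 and Sod1) and 3 overlapping, where 5.65% of all genes lay above and 82.7% below. Ftl1 was part of how the list was chosen, and the list was made with these libraries in view, so the shares are set side by side and nothing further is read from them.

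In the edgeR fit with TMM scaling, 8 of the 9 genes other than Ftl1 were higher in axons and 1, Txnrd1, was lower with shControl. Of all 12337 genes 27.9% were called, 9.41% higher and 18.5% lower (quasi-likelihood test, Benjamini-Hochberg, threshold 0.05). The median log2 difference of the 9 was 2.77, against -0.75 over all genes. Among the smaller differences were those of Sod1 at 2.24 (SE 0.46, adjusted p = 0.0201 by edgeR's quasi-likelihood test, Benjamini-Hochberg), Sod2 at 2.32, Prdx2 at 2.52, Prdx5 at 2.77 and Prdx1 at 3.75, whose adjusted p in the same test lay between 0.00932 and 0.0201. Txnrd1 had -3.26 (SE 0.77, adjusted p = 0.0251 by edgeR's quasi-likelihood test, Benjamini-Hochberg), and its call was lost when the 4 shControl libraries were fitted alone (log2 -3.12, adjusted p = 0.0823, same test). With shPum2, 8 of the 9 were called higher and 0 lower. Of all genes 24.7% were called there, 8.45% higher and 16.2% lower, and the median was 2.91 against -0.64. Txnrd1 had 0.06 there (SE 0.70, adjusted p = 0.965 by edgeR's quasi-likelihood test, Benjamini-Hochberg).

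These calls depend on the scale. TMM factors were 0.478 to 0.754 in axonal and 1.66 to 1.80 in somatic libraries, and they raise axonal against somatic values. Scaled by total counts instead, the median of all genes was -2.34 with shControl and -2.03 with shPum2, the members called higher in axons were 5 and 3 of 9, and Txnrd1 with shPum2 turned to -1.49 on the log2 scale. Of all genes called with shControl, 1161 were higher and 2284 lower with TMM, and 609 were higher and 3606 lower with total counts. A replicate block was also fitted within each compartment. The compartment difference of that fit is the one fitted for replicate 1, not the main difference adjusted for replicate. It called 0 genes and 0 members in either compartment comparison, which is not read as a test of the main calls. Fth1 then had 6.81 with shControl (adjusted p = 0.0544 by edgeR's quasi-likelihood test, Benjamini-Hochberg). Without either somatic library of the hairpin tested, 0 genes and 0 members were called in that hairpin's compartment comparison (edgeR quasi-likelihood, Benjamini-Hochberg).

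**Figure D3:**
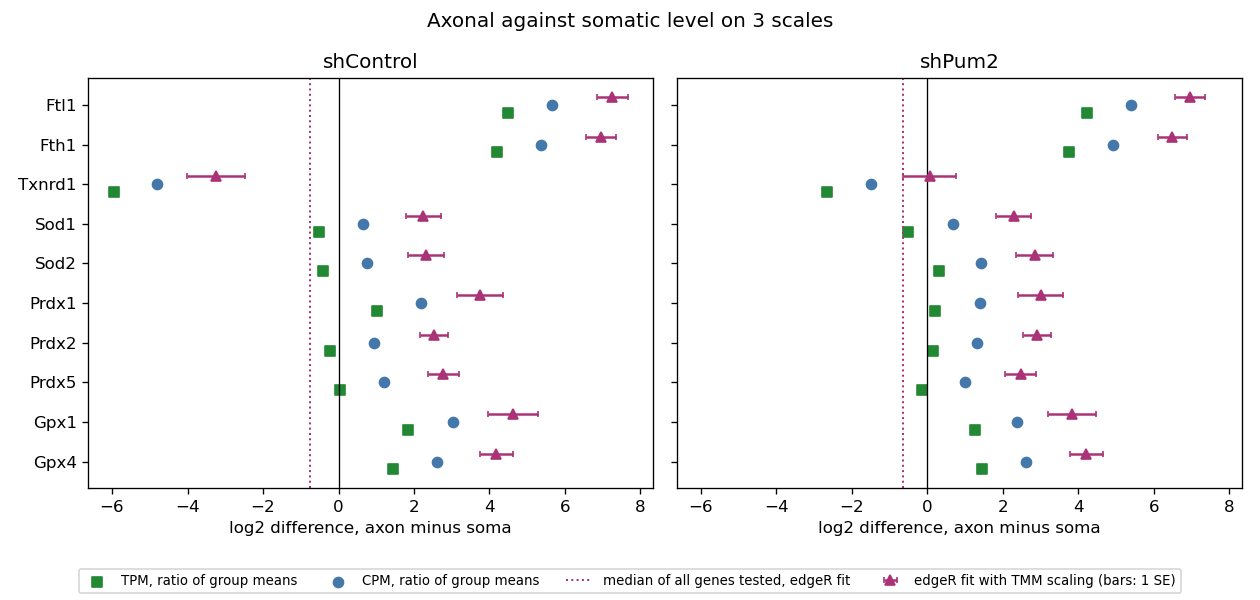
Log2 difference of axonal minus somatic level for the 10 genes with shControl (left) and shPum2 (right), as ratios of group means in TPM (squares) and CPM (circles) and as the edgeR estimate with TMM scaling (triangles, bars 1 SE). Ftl1, Fth1, Prdx1, Gpx1 and Gpx4 lie to the right of 0 on all 3 scales. In TPM Sod1 lies to the left with both hairpins, Sod2 and Prdx2 with shControl, and Prdx5 with shPum2. Txnrd1 lies to the left in CPM and TPM with both hairpins.

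Between genes, levels were compared in TPM. In somatic libraries the order was Ftl1 (2589 to 3298), Fth1 (2319 to 3147), Prdx2 (1114 to 1235), Sod1 (825 to 989), Prdx1 (553 to 658), Gpx4 (410 to 486) and Prdx5 (347 to 370.0). Sod2 (127 to 142), Txnrd1 (127 to 138) and Gpx1 (49.6 to 159) shared the last places and overlapped each other. Ftl1 and Fth1 overlapped in range, although Ftl1 was the higher in each library. In axonal libraries Ftl1 (50341 to 65965) and Fth1 (34028.5 to 44814.5) were followed at a distance by Gpx4 (1048 to 1317), Prdx2 (983 to 1324) and Prdx1 (621 to 1788), which overlapped. Sod1 (598 to 704) overlapped Prdx1 alone among these. Prdx5 (225 to 492), Gpx1 (133 to 368) and Sod2 (62.5 to 237) overlapped in turn, and Txnrd1 was last in every axonal library at 0.685 to 24.0. Gpx4 thus had place 6 of the 10 in each somatic library and place 3 or 4 in each axonal one.

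Transcript length went along with the compartment difference. Ftl1 (945 bases), Fth1 (828), Sod1 (650), Prdx1 (882), Prdx2 (877), Prdx5 (837), Gpx1 (930) and the main Gpx4 transcript (947) are all shorter than 1000 bases. Over the 1199 genes tested in that length class the median log2 difference with shControl was 2.35, and 40.5% of them were called higher in axons (edgeR, TMM). Sod1 with 2.24 lay below that median, and Prdx2 with 2.52, Prdx5 with 2.77, Prdx1 with 3.75, Gpx4 with 4.18, Gpx1 with 4.62, Fth1 with 6.96 and Ftl1 with 7.25 lay above it. Txnrd1 and Sod2 (2090 bases) fall in the class from 2000 to below 4000 bases, whose 4969 genes had a median of -1.34 with 4.11% called higher and 20.5% lower. There Sod2 with 2.32 lay above the median and Txnrd1 with -3.26 below it. The part of length, and of the kit that differs with the compartment, in the members' differences was not tested.

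**Figure D4:**
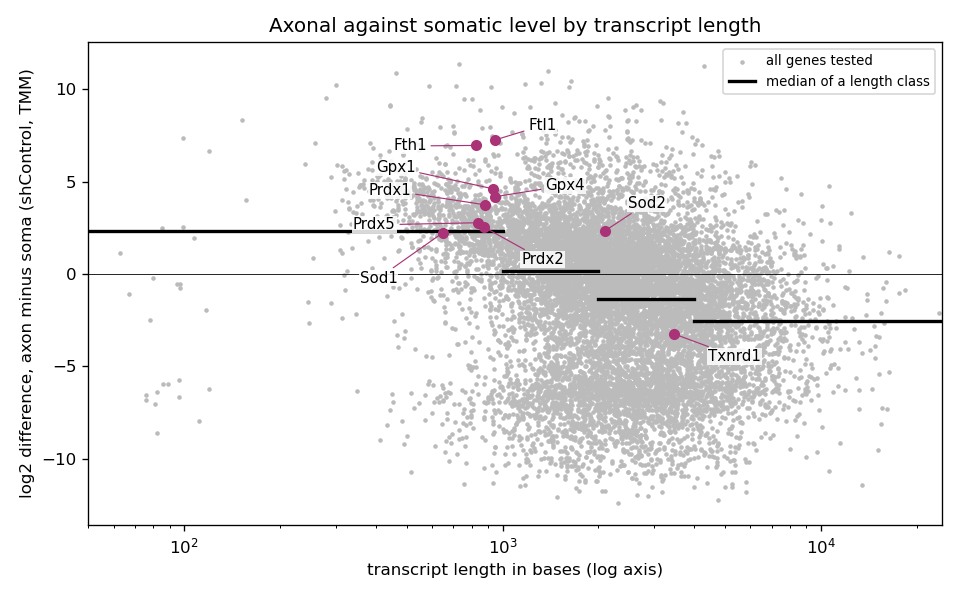
Log2 difference of axonal minus somatic level with shControl (edgeR, TMM) against transcript length in bases on a log axis, 1 grey point per gene tested, with the 10 genes marked and a black line at the median of each length class. Shorter genes lie higher, and Ftl1 and Fth1 lie well above the median of their class, 2.35.

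Replicates of the axonal groups differed more than those of the somatic groups. The median fold between the 2 libraries of a group was 1.04 and 1.09 over the 10 genes in somatic shControl and shPum2, and 1.35 and 1.36 in axonal shControl and shPum2. Over all genes with a mean of at least 100 CPM it was 1.06 and 1.09 in the somatic and 1.42 and 1.48 in the axonal groups. Fth1 was among the steadiest in axons, with folds of 1.18 and 1.03, and Ftl1 had 1.33 and 1.01. The axonal folds above 2 were those of Txnrd1 with shControl (4.71), Prdx1 with shControl (2.65), Sod2 with shControl and shPum2 (2.23 and 2.43) and Gpx1 with shPum2 (2.29).

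Across the 8 libraries, the genes outside the list whose log2(CPM + 1) was most like that of Ftl1 by Pearson correlation were Rps2 (r = 0.9992), a ribosomal protein, Ybx1 (0.9987), an RNA-binding protein, Selenow (0.9986), a small selenoprotein, Ndufa1 (0.9986) of respiratory complex I and Cox7a2 (0.9985) of cytochrome oxidase. They are the first 5 of 410 genes with a mean log2 CPM of at least 8. Selenow stood at 325 to 353 CPM in somatic and 3123 to 4264 CPM in axonal libraries, and Rps2 at 815 to 1009 and 13053 to 19071 CPM. Within the list r was 0.9997 for Fth1, 0.992 for Gpx4, 0.970 for Prdx2, 0.939 for Gpx1, 0.901 for Sod1, 0.883 for Prdx1, 0.855 for Prdx5, 0.691 for Sod2 and -0.787 for Txnrd1. These values rest on the difference between compartments that all 8 libraries share and carry no test.

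No gene of the list passed the somatic comparison of the hairpins. Log2 differences of shPum2 minus shControl lay between -0.15 for Sod2 and 0.37 for Gpx1, with SEs of 0.0763 to 0.539. None of the 10 was called in the somatic comparison (adjusted p = 0.9997 for each by edgeR's quasi-likelihood test, Benjamini-Hochberg), where 0.0081% of 12346 genes were, and 0 of 10 passed at an unadjusted p below 0.05, where 0.599% of all genes did. DESeq2 and limma voom also called 0 of the 10. Same-numbered somatic libraries deviated together (r = 0.722), which this fit left in its spread. With the replicate number as a block edgeR again called 0 of the 10, while 706 of 12346 genes had an unadjusted p below 0.05. The largest estimate, that of Gpx1, ran from -0.63 without replicate 1 of shPum2 to 0.96 without replicate 2 of shPum2. Replicate 1 of shPum2 also had the most macrophage and fibroblast marker RNA of the somatic libraries. The part of such cells in this estimate was not tested. Libraries of the hairpins did not overlap for Prdx1 (above with shPum2), Sod2 and Prdx2 (below), 3 of 10 genes, where 24.5% of all genes did not overlap, 11.5% above and 13.0% below. In the authors' deposited table the somatic log2 fold changes of the 10 genes lay between -0.12 for Sod2 and 0.15 for Fth1, and all of their adjusted p-values were 0.9999.

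In axons Txnrd1 had the widest gap between hairpins. Its values of 98.6 and 89.1 CPM with shPum2 lay above 3.17 and 15.3 CPM with shControl, which is 3.26 on the log2 scale (SE 1.3). It had an unadjusted p of 0.0349 and did not pass after adjustment over 8517 genes (adjusted p = 0.9998 by edgeR's quasi-likelihood test, Benjamini-Hochberg). Of all axonal genes 0.0% were called and 3.02% had an unadjusted p below 0.05, where 1 of the 10 did. Leaving out each axonal library in turn gave Txnrd1 differences of 2.59 to 4.76, all in the same direction and none past the threshold. In the authors' deposited table Txnrd1 had an axonal log2 fold change of 2.97 (their SE 1.31) with a p-value of 0.0232 and an adjusted p of 0.228. The axonal biological coefficient of variation was 125%, against 23.5% in the somatic comparison.

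The other 9 genes had axonal log2 differences between -0.69 for Prdx1 and 0.35 for Sod2. Ftl1 had -0.24 (SE 0.79) and Fth1 -0.33 (SE 0.74), and both missed the threshold (adjusted p = 0.9998 by edgeR's quasi-likelihood test, Benjamini-Hochberg). The axonal shPum2 libraries lay below both shControl libraries for Fth1 and above them for Txnrd1 and Prdx2, and overlapped for the remaining 7. Among all axonal genes 27.8% did not overlap, 15.8% above and 12.0% below. DESeq2 called 157 axonal genes and 0 of the 10.

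The interaction is the axonal effect of the hairpin minus its somatic effect, from a fit in which both compartments share 1 spread per gene. None of the 10 was called, where 0.0% of 12337 genes were (edgeR quasi-likelihood, Benjamini-Hochberg), and DESeq2, with 606 calls, also called 0 of them. Txnrd1 had an interaction of 3.32 (SE 1.02, unadjusted p = 0.0152, adjusted p = 0.517 by edgeR's quasi-likelihood test, Benjamini-Hochberg). It was the 1 gene of the 10 with an unadjusted p below 0.05, as 7.81% of all genes were. Its adjusted p ranged from 0.0646 to 0.99999 over the alternatives.

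**Figure D5:**
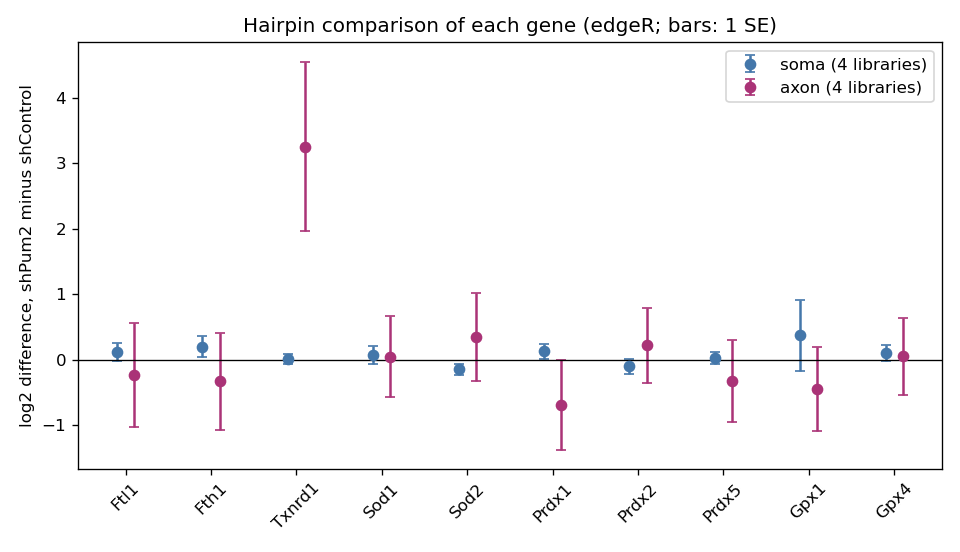
Log2 difference of shPum2 minus shControl for the 10 genes in the 4 somatic libraries and in the 4 axonal libraries (edgeR estimates, bars 1 SE). Somatic estimates lie between -0.15 and 0.37, and the axonal estimate of Txnrd1, 3.26 with an SE of 1.3, lies apart from the other 9.

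Genes that act beside these 10 were taken from lists by function and counted in the same fits. Of 18 iron handling genes tested (22 listed), 2 were higher in axons with shControl and 0 lower: Hmox1, the inducible haem oxygenase (38.9 and 55.3 CPM in somatic, 131 and 329 CPM in axonal shControl libraries, log2 3.85, adjusted p = 0.0101 by edgeR's quasi-likelihood test, Benjamini-Hochberg), and Iscu, a scaffold for iron-sulphur clusters (log2 2.61, adjusted p = 0.0186). The list's median was 0.34, against -0.75 over all genes, of which 9.41% were called higher and 18.5% lower. The transferrin receptor Tfrc was at 188 and 178 CPM in somatic and at 1.11 and 4.29 CPM in axonal shControl libraries (adjusted p = 0.0919 by edgeR's quasi-likelihood test, Benjamini-Hochberg). Ireb2, an iron regulatory protein, had 90.7 and 78.7 CPM in the same somatic libraries, against 1.45 and 0.0739 CPM in the axonal pair (adjusted p = 0.126, same test). With shControl DESeq2 called both genes, and limma voom called Ireb2. With shPum2 neither tool called either gene. Tfrc was then at 29.9 and 0.31 CPM in axonal libraries (log2 -2.31, adjusted p = 0.340 by edgeR's quasi-likelihood test, Benjamini-Hochberg). Ireb2 was at 14.3 and 0.062 CPM in them (log2 -2.20, adjusted p = 0.474, same test). The 19 iron handling genes found summed to 1225 to 1330.1 CPM in somatic and to 845 to 1087 CPM in axonal libraries.

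Over all genes 9.41% were called higher and 18.5% lower with shControl, with a median of -0.75. Of 13 further peroxiredoxin, thioredoxin and glutaredoxin genes, 4 were higher in axons with shControl and 0 lower, with a median of 1.97. Txn1, the substrate of Txnrd1, was at 264 and 297 CPM in somatic and at 1042 and 1208 CPM in axonal shControl libraries (log2 3.58, adjusted p = 0.00647 by edgeR's quasi-likelihood test, Benjamini-Hochberg). Txn1 and its reductase therefore lay on opposite sides with shControl. Of 17 glutathione genes 5 were higher and 1 lower, with a median of 2.32. Mgst3, a microsomal glutathione transferase, was at 71.5 and 58.9 CPM in somatic and at 486 and 456 CPM in axonal shControl libraries, and Gclc, the catalytic subunit of glutamate-cysteine ligase, was the one called lower (log2 -3.85, adjusted p = 0.0211 by edgeR's quasi-likelihood test, Benjamini-Hochberg).

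Of 12 other superoxide, peroxide and NRF2 pathway genes 4 were higher and 0 lower with shControl, with a median of 1.63. The shares over all genes were 9.41% higher and 18.5% lower, with a median of -0.75. The copper chaperone Atox1 was at 62.1 and 59.7 CPM in somatic and at 432 and 391 CPM in axonal shControl libraries. Of 12 selenoprotein genes 4 were higher and 0 lower, with a median of 1.74, and Selenow had a log2 difference of 5.03 (adjusted p = 0.00389 by edgeR's quasi-likelihood test, Benjamini-Hochberg). With shPum2, where 8.45% of all genes were called higher and 16.2% lower, the numbers higher and lower were 2 and 0 for iron handling, 5 and 0 for peroxiredoxins and thioredoxins, 5 and 2 for glutathione, 3 and 0 for the NRF2 pathway list and 4 and 0 for selenoproteins, with medians of 0.18, 1.92, 1.80, 1.37 and 0.67. The glutathione genes called lower there were Gclm, the modifier subunit of the ligase, and Mgst1, named after their values were seen. Their adjusted p-values were 0.0303 and 0.0309 (edgeR's quasi-likelihood test, Benjamini-Hochberg). With shControl neither was called, and their log2 differences were 0.42 and 1.87. Gclm was at 51.3 and 59.4 CPM in somatic shPum2 libraries, and in the axonal ones at 1.03 and 0.868 CPM. Mgst1 had 0 counts in both axonal shPum2 libraries, at least 74.6-fold below its somatic mean of 8.05 CPM, taking a floor of 3 counts over the group.

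In the comparisons of the hairpins 0 genes of these 5 lists were called in somata, axons or the interaction (edgeR quasi-likelihood, Benjamini-Hochberg), and likewise 0 by limma voom. DESeq2 called 0 in somata, 1 in axons (Gclc) and 5 in the interaction (Gclc, Gclm, Mgst1, Msrb2 and Sod3). Over all genes it called 2 of 12346 in somata, 157 of 8517 in axons and 606 of 12337 in the interaction. At an unadjusted p below 0.05 edgeR had 0 of 72 tested in somata, where 0.599% of all genes passed, 2 of 63 in axons, Gclc and Mgst1, where 3.02% did, and 6 of 72 in the interaction, where 7.81% did. Gclc, the enzyme that limits glutathione synthesis, stood at 0.599 and 2.0 CPM in axonal shControl, then at 72.8 and 38.6 CPM with shPum2 there, while the somatic libraries had 53.2 to 68.4 CPM. Its axonal log2 difference was 5.25 (SE 1.80, adjusted p = 0.9998 by edgeR's quasi-likelihood test, Benjamini-Hochberg), and over the alternatives its adjusted p ranged from 0.00991 (DESeq2) to 1. Gclc and Txnrd1 were thus both at 15.3 CPM or less in axonal shControl and at 38.6 to 98.6 CPM in axonal shPum2 libraries. Gclm had the opposite sign, at 7.19 and 39.5 CPM with shControl against 1.03 and 0.868 CPM with shPum2, a log2 difference of -4.70 (adjusted p = 0.9998 by edgeR's quasi-likelihood test, Benjamini-Hochberg).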

How the data were processed

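The authors' deposited file of each library holds estimated counts and TPM for 18321 RefSeq transcripts, with transcript lengths in bases as a further (other) column, per the file headers. Kallisto, DESeq2 and build Rnor_6.0 are named in the submitters' processing notes, without versions. The authors' 2 deposited tables of shPum2 against shControl, 1 per compartment, hold 17320 genes each, with the mean signal, log2 fold change and its SE, test score, and raw and adjusted p-values named in the file headers. Transcripts were matched to symbols through RefSeq's GRCr8 table, used for names alone (94.8% matched). Estimated counts were summed per gene and rounded. Where near-identical genes share reads, kallisto's split between them makes their values uncertain.

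CPM used each library's total. Tests used edgeR 4.0.16 (quasi-likelihood, TMM, filterByExpr) in R 4.3.3 with Benjamini-Hochberg adjustment over all genes at 0.05. The hairpins were compared within the 4 libraries of a compartment, and compartments and the interaction in a fit of all 8. Scripts were tested on simulated data. DESeq2 1.42.0, limma 3.58.1 (voom), other size factors, no filter, a replicate block, other sets of libraries and leaving out each library were alternatives. Named were the 10 genes, Pum2, up to 4 genes per list with the smallest p, and the 5 genes most like Ftl1. Tfrc, Ireb2, Gclc, Gclm, Mgst1, Msrb2 and Sod3 were in part named after their values were seen. The 10 genes and the lists were chosen with earlier results of these data known. Fold changes of TPM are ratios of group means. Intervals and floors cover counting error alone.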

Additional observations from a re-analysis of the deposited data

Results flagged for a closer look

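Prdx2 had both axonal shPum2 libraries above both axonal shControl libraries (1162 and 1331 against 999.7 and 1039 CPM), and both somatic shPum2 libraries below both somatic shControl libraries (476 and 516 against 524 and 536 CPM). The hairpin groups thus lay in opposite order in the 2 compartments. Over all genes, libraries of the hairpins did not overlap for 24.5% in somata and 27.8% in axons. How many genes had opposite order in both was not counted. The difference between the effects, tested as the interaction, was 0.39 on the log2 scale (SE 0.49, adjusted p = 0.946 by edgeR's quasi-likelihood test, Benjamini-Hochberg). Leaving out each library in turn gave values from -0.19 to 0.89.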

How the results depend on the processing

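Having 2 libraries a group limits every test, and some axonal values rest on few counts, such as 1 count of Ireb2 in replicate 2 of both axonal groups. No alternative called 1 of the 10 genes in the hairpin comparisons or the interaction. Genes called over the whole table moved as follows. In the somatic hairpin comparison 2 were called with DESeq2, 0 with limma voom and 0 with all 8 libraries in a single fit. In the axonal comparison 6 were called without a filter and 157 with DESeq2, and in the interaction 606 with DESeq2. Leaving out each library gave 0 to 1 in somata, 0 to 31 in axons and 0 to 713 in the interaction.

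Small hairpin estimates changed sign. Txnrd1 in somata was -0.0092 with all 8 libraries in a single fit. In axons Sod1 was -0.0453 and Gpx4 -0.014 with voom, and in the interaction they were -0.0827 and -0.0806. With each library left out, somatic values ran from -0.0187 to 0.24 for Ftl1, -0.63 to 0.96 for Gpx1, -0.0106 to 0.21 for Gpx4, -0.0531 to 0.0949 for Prdx5, -0.089 to 0.21 for Sod1, -0.0103 to 0.016 for Txnrd1. Axonal values ran from -0.56 to 0.0573 for Ftl1, -0.48 to 0.45 for Gpx4, -1.34 to 0.16 for Prdx1, -0.21 to 0.55 for Prdx2, -0.66 to 0.17 for Prdx5, -0.60 to 0.50 for Sod1, -0.0763 to 0.99 for Sod2. Interactions ran from -0.76 to 0.14 for Ftl1, -1.36 to 0.19 for Gpx1, -0.66 to 0.59 for Gpx4, -1.56 to 0.0785 for Prdx1, -0.19 to 0.89 for Prdx2, -0.67 to 0.18 for Prdx5, -0.75 to 0.66 for Sod1.

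In the compartment comparisons, scaling by total counts gave 609 genes higher and 3606 lower with shControl and 538 and 3015 with shPum2, with 5 and 3 members higher and Txnrd1 with shPum2 at -1.49. DESeq2 called 2091 and 1797 genes higher. The 4 libraries of shControl alone called 0 members lower. Leaving out each library gave 0 to 4664 genes with shControl (0 to 1697 higher, 0 to 2967 lower, 0 to 8 members higher and 0 to 1 lower) and 0 to 4862 with shPum2 (0 to 1679 higher, 0 to 3183 lower, 0 to 8 members higher), with Txnrd1 at -0.27 to 0.47. The lowest counts, 0, came without either somatic library.

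Deviations of same-numbered libraries went together between the somatic groups (r = 0.722), and the main somatic test had no block for this. They correlated at only 0.0854 between axonal groups, 0.0483 across compartments with shControl and 0.0748 with shPum2. With the replicate number as a block within each compartment, 1 gene was called in the somatic and 0 in the axonal hairpin comparison. Between compartments that fit gives the difference fitted for replicate 1, not the main difference adjusted for replicate. There 0 genes and 0 members were called, higher or lower, which is not read as a test of the main calls. The smallest adjusted p of a member was then 0.0544 with shControl, where Fth1 had 6.81, and 0.0559 with shPum2, where it had 6.32. Under the block Sod1 was -0.0444 and Gpx4 -0.0101 in axons, -0.0656 and -0.0586 in the interaction, and Txnrd1 with shPum2 was -0.56 between compartments.

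In deposited TPM the log2 ratio of axonal to somatic means moved with shControl to 4.48 for Ftl1, 4.19 for Fth1, 1.03 for Prdx1, 0.0452 for Prdx5, 1.84 for Gpx1 and 1.44 for Gpx4, and turned to -0.52 for Sod1, -0.40 for Sod2 and -0.23 for Prdx2. With shPum2 it moved to 4.23 for Ftl1, 3.76 for Fth1, -2.65 for Txnrd1, 0.32 for Sod2, 0.21 for Prdx1, 0.16 for Prdx2 and 1.45 for Gpx4, and turned to -0.50 for Sod1 and -0.13 for Prdx5. Apart from the scale itself and the smaller number of libraries, the cause of these changes was not tested.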
